A study of Rattus norvegicus with 27 samples.

Results

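Microglia are the resident macrophages of the spinal cord, and the 10 genes described here are ones commonly used to mark them: Aif1, C1qa, C1qb, Trem2, Laptm5, Itgam, Cx3cr1, Lcp1, Csf1r and P2ry12. They were chosen by name, with earlier results of these data known. All probe sets that the platform annotation pairs with one of these symbols alone were used. Laptm5 had 2 such probe sets and each other gene had 1, which gave 11 of the 12913 probe sets tested. Each probe set is a group of short array probes whose signals are summarised to 1 value, and all values here are log2 signals after RMA, so that a difference of 1 is a doubling of the signal.

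The samples were tail motor neurons of male adult Wistar rats, labelled from the muscle with the retrograde tracer Fluorogold 5 to 7 days before the cord was frozen and then cut by laser from sections of 10 µm. Spi-21 (8 arrays) and Spi-60 (8 arrays) came from rats 21 and 60 days after the sacral cord was cut at S2, with 1 to 2 mm of tissue removed. ShamC-21 (6 arrays) and ShamC-60 (5 arrays) came from rats at the same times after a laminectomy that left the dura intact. Every rat, sham included, thus had surgery on the vertebrae, buprenorphine for pain and the tracer injections. Each sample pooled 100 to 200 neurons per the sample labels (50 to 200 per the series text), and its RNA was amplified in 2 rounds. The labels number the samples as biological replicates without tying any to an animal, and the spread behind every p-value here is that between samples, which may be technical. As a description of the motor neuron label, the mean over 14 measured motor neuron genes lay between 9.91 and 10.45 in 26 arrays and at 8.63 in ShamC-60 replicate 4. A probe set's own affinity sets its level, so levels are compared between arrays and not between genes.

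The 10 genes have known roles in recognition, uptake and movement. C1qa and C1qb encode 2 of the chains of C1q, the recognition molecule that opens the classical complement cascade and that tags synapses and debris for uptake. Trem2, Csf1r, Cx3cr1, P2ry12 and Itgam encode surface receptors: Trem2 senses lipids and debris, Csf1r is the receptor kinase on which microglial survival depends, Cx3cr1 binds the neuronal chemokine fractalkine, P2ry12 senses released nucleotides and is a gene of surveying microglia, and Itgam is the alpha chain of complement receptor CR3. Laptm5 encodes a lysosomal membrane protein of blood-lineage cells. Aif1 (also called Iba1) and Lcp1 (L-plastin) encode actin-binding proteins. In the spinal cord, microglia lie close to motor neuron cell bodies and take part in the response to injury. In pooled cells such as these, fewer microglial fragments per sample and less RNA per fragment cannot be told apart.

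Myeloid genes are known targets of the transcription factor PU.1, which binds purine-rich sites with a GGAA core. The promoters of C1qb, Trem2 and Itgam, the members that rose at 21 days, are shown with that of C1qa, which lies beside C1qb on the same chromosome. They are the 250 bases before the annotated start, 5′ to 3′ on the gene's strand, from RefSeq (build GRCr8), and capitals mark GAGGAA or its reverse complement TTCCTC.
C1qa, chr5:154419934-154420183, minus strand: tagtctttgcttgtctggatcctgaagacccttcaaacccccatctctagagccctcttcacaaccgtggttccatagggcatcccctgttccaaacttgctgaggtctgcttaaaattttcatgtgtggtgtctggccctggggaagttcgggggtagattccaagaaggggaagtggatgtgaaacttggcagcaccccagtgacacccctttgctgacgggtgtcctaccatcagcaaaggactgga
C1qb, chr5:154407828-154408077, minus strand: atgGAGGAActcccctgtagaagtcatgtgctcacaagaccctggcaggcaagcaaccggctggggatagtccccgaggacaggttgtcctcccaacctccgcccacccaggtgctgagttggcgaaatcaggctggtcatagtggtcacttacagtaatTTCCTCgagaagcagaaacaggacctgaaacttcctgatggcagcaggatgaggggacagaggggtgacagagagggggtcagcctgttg
Trem2, chr9:20151780-20152029, minus strand: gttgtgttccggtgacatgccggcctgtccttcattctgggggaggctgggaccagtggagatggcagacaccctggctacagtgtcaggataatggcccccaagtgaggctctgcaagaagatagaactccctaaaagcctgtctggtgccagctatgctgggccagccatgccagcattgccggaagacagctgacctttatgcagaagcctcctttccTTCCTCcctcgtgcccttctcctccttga
Itgam, chr1:192089342-192089591, plus strand: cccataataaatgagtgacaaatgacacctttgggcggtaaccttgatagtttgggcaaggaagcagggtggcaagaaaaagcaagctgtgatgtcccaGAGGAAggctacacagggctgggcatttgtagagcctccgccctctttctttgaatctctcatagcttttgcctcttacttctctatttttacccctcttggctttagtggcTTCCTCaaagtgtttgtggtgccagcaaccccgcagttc
Of the 10 genes, 7 had a promoter in the table used. Within 250 bases before to 50 after the start, 5 of these 7 held GAGGAA on either strand: C1qb (at -247 and -90 from the start), Trem2 (-29), Laptm5 (-63), Itgam (-151 and -39) and Csf1r (-229 and -95). The letters were found in neither the C1qa nor the Cx3cr1 window. Among all 33469 promoters given there, 27.6% held them. These are matches of letters, not binding sites. The shorter GGAA core was not marked or counted by itself, and it also occurs in the C1qa bases shown.

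At 21 days after transection C1qb, Trem2 and Itgam were higher and Lcp1 was lower, and the other 7 probe sets did not pass. The 3 rises were small, 0.32 to 0.61 on the log2 scale, and the fall of Lcp1 was larger, by 1.24. Thus 4 of the 11 probe sets were called (limma, Benjamini-Hochberg adjusted p under 0.05 over all 12913), against 22.6% of all probe sets, of which 11.3% were higher and 11.2% lower. The median difference of the 11 was 0.28, against 0.01 for all probe sets. Leaving out 1 array at a time gave 1 to 6 probe sets higher and 1 to 2 lower. Without ShamC-21 replicate 1 the count higher was 1, when 15.8% of all probe sets were called in either direction. It was 6 without Spi-21 replicate 7 (24.2% of all called) and 5 without Spi-21 replicate 8 (23.6%). Without Spi-21 replicate 4 the count lower was 2 (22.6% of all called).

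C1qb had the clearest separation. It lay between 5.81 and 6.77 in Spi-21 (median 5.96), against 5.25 to 5.64 in ShamC-21 (median 5.49). Every transected array was above every sham array, which held for 3.07% of all probe sets at this time. The log2 difference was 0.61 ± 0.163 (SE; limma adjusted p = 0.0096), a 1.52-fold rise, and it passed without any single array (0.51 to 0.64, adjusted p up to 0.0263). The other chain, C1qa, spread far more. It ranged from 5.52 to 9.94 in Spi-21 (median 7.12), against 6.69 to 7.76 in ShamC-21 (median 6.83). The transected arrays lay on both sides of the sham range, 2 above all of it and 3 below all of it, and the difference was 0.27 ± 0.498 (limma adjusted p = 0.73).

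Among the receptors, Trem2 read 6.14 to 6.93 in Spi-21 (median 6.51), against 6.03 to 6.41 in ShamC-21 (median 6.26), and 6 of 8 transected arrays were above every sham array. It rose by 0.34 ± 0.101 (limma adjusted p = 0.0184), and by 0.28 to 0.40 over all the single-array fits. The call ended without ShamC-21 replicate 1 or 6 (adjusted p up to 0.0511). Itgam read 5.51 to 6.10 in Spi-21 (median 5.65), against 5.27 to 5.64 in ShamC-21 (median 5.40), with 4 of 8 transected arrays above every sham array. It rose by 0.32 ± 0.0998 (limma adjusted p = 0.0239), and lost its call without Spi-21 replicate 2 or ShamC-21 replicate 1 or 5 (adjusted p up to 0.0645). C1qb and Itgam lie below the median probe set in mean signal, and of all such dimmer probe sets 12.1% were called higher and 5.82% lower.

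Cx3cr1 (6.18 to 6.96 in Spi-21, 6.15 to 6.52 in ShamC-21) differed by 0.20 ± 0.0982, with an adjusted p of 0.138. P2ry12 (6.12 to 6.88 in Spi-21, 5.82 to 6.23 in ShamC-21) differed by 0.28 ± 0.111, with an adjusted p of 0.0664. Csf1r was as uneven as C1qa: 5.17 to 8.41 in Spi-21 (median 6.94), against a narrow 6.92 to 7.29 in ShamC-21 (median 7.16). Its difference was −0.19 ± 0.334 (limma adjusted p = 0.714, 95% interval −0.88 to 0.49), so that neither a rise nor a fall of that size was detectable at this spread.

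Lcp1 read 7.94 to 9.64 in Spi-21 (median 8.97), against 9.57 to 10.79 in ShamC-21 (median 10.14), and 7 of 8 transected arrays were below every sham array. It fell by 1.24 ± 0.325 on the log2 scale (limma adjusted p = 0.00807), and kept its call without any single array (−1.36 to −1.10, adjusted p up to 0.0274). Aif1, the other actin-binding member, also pointed down. It read 4.43 to 7.70 in Spi-21 (median 5.50), against 5.92 to 7.10 in ShamC-21 (median 6.62), with 5 of 8 transected arrays below every sham array and 1, replicate 4, above all of them. Its difference of −0.89 ± 0.400 did not pass (limma adjusted p = 0.106) and did without Spi-21 replicate 4 (adjusted p = 0.0179). The brighter Laptm5 probe set (1383658_at) read 7.43 to 10.35 in Spi-21, against 7.50 to 8.24 in ShamC-21, and its difference of 0.81 ± 0.323 did not pass (adjusted p = 0.0694). The dimmer one (1368006_at) gave 0.30 ± 0.247 (adjusted p = 0.404).

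**Figure D1:**
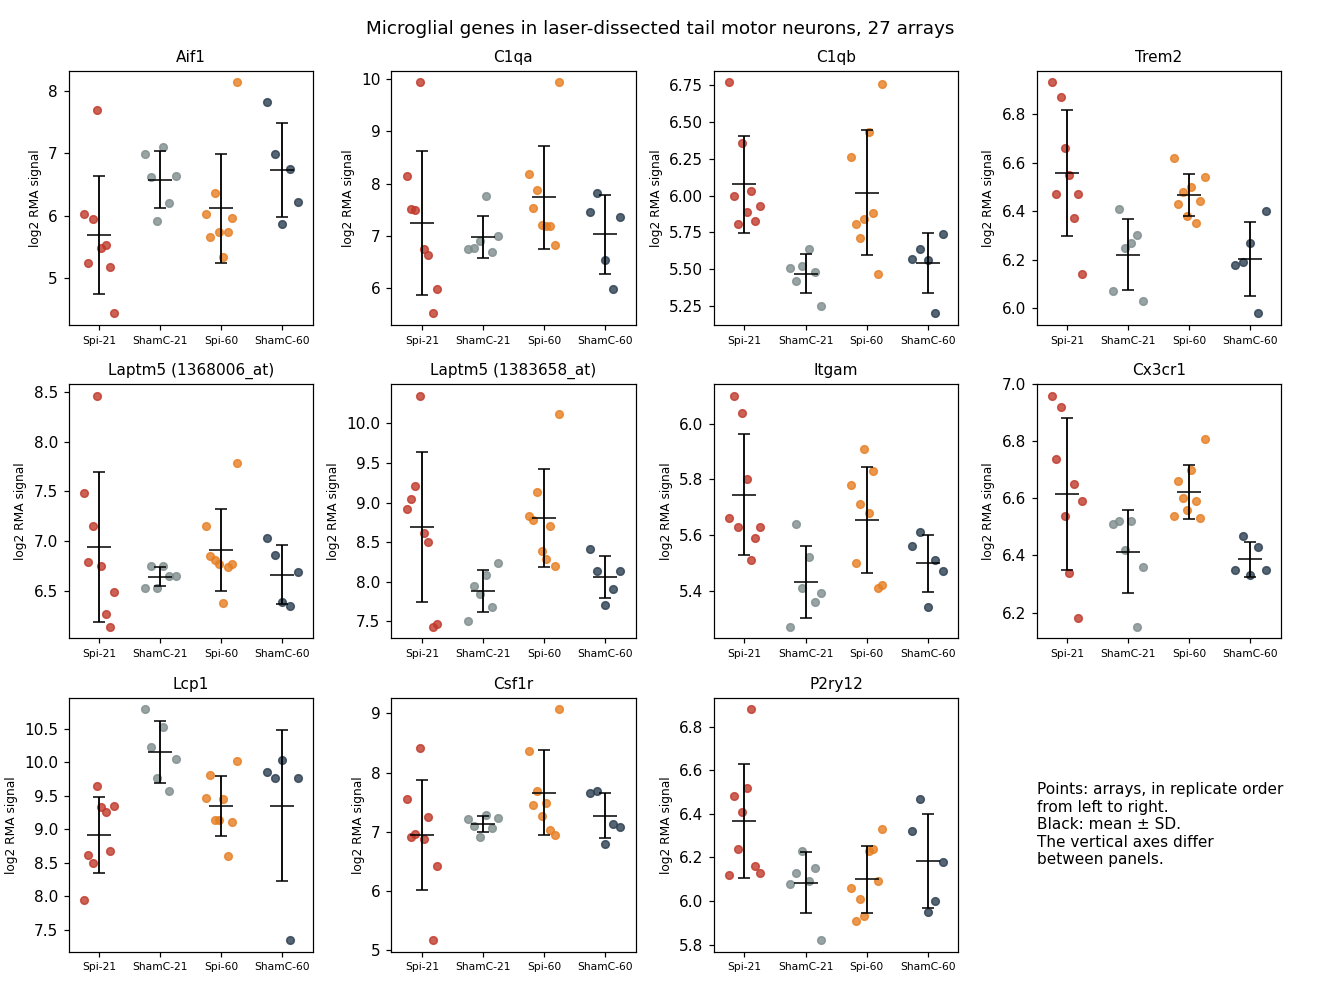
Log2 RMA signal (vertical axes, which differ between panels) of the 11 probe sets in the 4 groups; points are arrays and black bars are mean ± SD. C1qb lies between 5.81 and 6.77 in Spi-21 and between 5.25 and 5.64 in ShamC-21, while C1qa reaches 9.94 in 1 array of each transected group.

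The 8 Spi-21 arrays were not alike in 3 of the 11 probe sets. In the array controls for GAPDH, the 3′ minus 5′ difference, which rises when transcripts are shortened toward their 3′ end, lay between 2.57 and 3.47 in replicates 1 to 4 and between 0.98 and 1.46 in replicates 5 to 8 (2.65 to 3.26 in ShamC-21). C1qa, for one, lay between 7.49 and 9.94 in replicates 1 to 4 and between 5.52 and 6.75 in replicates 5 to 8. The brighter Laptm5 probe set lay between 8.92 and 10.35 in replicates 1 to 4 and between 7.43 and 8.62 in replicates 5 to 8. The dimmer one lay between 6.79 and 8.46 in replicates 1 to 4 and between 6.14 and 6.75 in replicates 5 to 8. These 3 pairs of ranges do not overlap, while those of the other 8 probe sets do. The share of all probe sets with ranges apart was not counted. The split is thus not shown to be particular to these genes. C1qb, for example, lay between 5.81 and 6.77 in replicates 1 to 4 and between 5.83 and 6.03 in replicates 5 to 8. The means of Lcp1 (8.67 and 9.15) and P2ry12 (6.31 and 6.42) were the lower in replicates 1 to 4. No batch is named in the labels, and the part of the control difference in these values was not tested.

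Fits with only part of these arrays therefore gave different pictures. This division of the arrays was chosen with earlier results of these data known. For probe sets whose ranges lie apart across it, such as C1qa, unlike differences follow from the division and are no independent support. With replicates 5 to 8 left out, 6 probe sets were higher, C1qb, Trem2, both of Laptm5, Itgam and Cx3cr1, and Lcp1 was lower, against 14.8% of all probe sets higher and 15.5% lower. The brighter Laptm5 probe set then differed by 1.50 ± 0.291 (limma adjusted p = 0.000702) and C1qa by 1.30 (adjusted p = 0.0522). With replicates 1 to 4 left out, 0 were higher in the limma fit and Aif1 was lower (−1.43 ± 0.413, adjusted p = 0.0297), against 5.26% of all probe sets higher and 5.08% lower. There C1qb differed by 0.45 ± 0.176 (adjusted p = 0.0995), Trem2 by 0.16 ± 0.0982 (adjusted p = 0.3) and Itgam by 0.20 ± 0.105 (adjusted p = 0.209), and Lcp1 did not pass (adjusted p = 0.0897). C1qa pointed down in that fit (−0.76 ± 0.444, adjusted p = 0.277). Both fits use the same sham arrays.

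**Figure D2:**
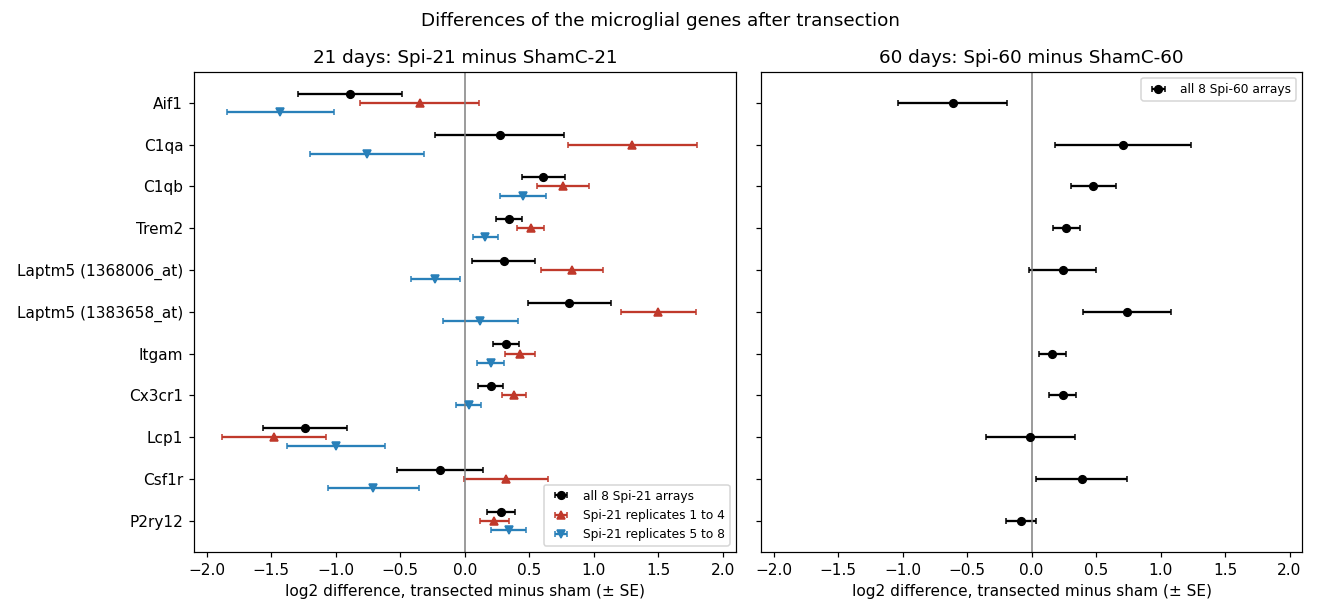
Log2 difference, transected minus sham (horizontal axes), of each probe set at 21 days (left) and 60 days (right), with the SE of the limma fit as bars. At 21 days the fits with Spi-21 replicates 1 to 4 alone and 5 to 8 alone are shown beside that with all 8: C1qa is at 1.30 in the first, −0.76 in the second and 0.27 with all 8. The division of the arrays was chosen with earlier results of these data known.

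At 60 days after transection C1qb was the 1 member called, higher by 0.48 ± 0.172 (limma adjusted p = 0.0497), and 0 were called lower. That is 9.09% of the 11 probe sets, below the 19.1% called among all probe sets, of which 10.2% were higher and 8.92% lower. At an unadjusted p under 0.05, 4 of the 11 passed in the limma fit. The share of all probe sets passing this looser threshold was not counted. It is at least the 19.1% called, since every called probe set passes it too. The count of 4 is thus not read further. The median difference of the 11 was 0.24, against 0.02 for all.

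C1qb read 5.47 to 6.76 in Spi-60 (median 5.86), against 5.57, 5.64, 5.56, 5.20 and 5.74 in the 5 ShamC-60 arrays. Of the transected arrays 6 of 8 were above every sham array, and the call lay at the edge: it ended without any 1 of 20 of the 27 arrays (0.37 to 0.56 over the single-array fits, adjusted p up to 0.16). Trem2 read 6.35 to 6.62 in Spi-60, against 6.18, 6.19, 6.27, 5.98 and 6.40 in ShamC-60, and differed by 0.27 ± 0.107 (limma adjusted p = 0.0775). Cx3cr1 read 6.53 to 6.81 in Spi-60, against 6.35, 6.47, 6.33, 6.43 and 6.35 in ShamC-60. Every transected array was above every sham array, as in 4.78% of all probe sets at this time, but its difference of 0.24 ± 0.104 did not pass in the limma fit (adjusted p = 0.105).

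C1qa read 6.82 to 9.94 in Spi-60 (median 7.36), against 7.45, 7.82, 6.54, 5.98 and 7.36 in ShamC-60, a difference of 0.71 ± 0.526 (limma adjusted p = 0.358). Csf1r read 6.94 to 9.07 in Spi-60 and 6.80 to 7.69 in ShamC-60 (0.39 ± 0.353, adjusted p = 0.462). Lcp1 read 8.60 to 10.02 in Spi-60, against 9.85, 9.76, 10.03, 7.34 and 9.77 in ShamC-60. The difference was −0.01 ± 0.343 (limma adjusted p = 0.991), and −0.51 without ShamC-60 replicate 4, the array at 7.34 (adjusted p = 0.212). Aif1 read 5.33 to 8.14 in Spi-60 (median 5.85), against 7.82, 6.99, 5.86, 6.74 and 6.21 in ShamC-60 (−0.61 ± 0.422, adjusted p = 0.321). The brighter Laptm5 probe set differed by 0.74 ± 0.341 (adjusted p = 0.124), the dimmer one by 0.24 ± 0.261 (adjusted p = 0.54), Itgam by 0.16 ± 0.105 (adjusted p = 0.302) and P2ry12 by −0.08 ± 0.117 (adjusted p = 0.655). ShamC-60 replicate 4 had the low motor neuron markers given above, and without ShamC-60 replicates 1 and 4 together 0 members were called (limma; C1qb did not pass), when 6.17% of all probe sets were.

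Averaged over both times, 7 of the 11 probe sets passed in limma, 63.6%, against 39.4% of all. The 5 higher were C1qb (0.54 ± 0.119, adjusted p = 0.000792), Trem2 (0.30 ± 0.0735, adjusted p = 0.00211), the brighter Laptm5 probe set (0.78 ± 0.235, adjusted p = 0.0104), Itgam (0.24 ± 0.0726, adjusted p = 0.0113) and Cx3cr1 (0.22 ± 0.0714, adjusted p = 0.0164), against 20.4% of all probe sets higher. All 5 passed without any single array. The 2 lower were Aif1 (−0.75 ± 0.291, adjusted p = 0.0417) and Lcp1 (−0.63 ± 0.237, adjusted p = 0.0371), against 19.0% of all lower. Aif1 lost its call without any 1 of 18 arrays and Lcp1 without any 1 of 11 (adjusted p up to 0.102 and 0.0802).

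The effect of transection at 60 days minus that at 21 days passed for 0 of the 11 probe sets, and 0.0% of all, in limma. At an unadjusted p under 0.05 there were 2, Lcp1 (1.23 ± 0.473, adjusted p = 0.647) and P2ry12 (−0.36 ± 0.162, adjusted p = 0.682). The fall of Lcp1 at 21 days is thus not shown to differ from its value at 60 days. Between times within an operation, 0 of the 11 passed in either limma comparison, beside 0.0852% of all probe sets in Spi-60 minus Spi-21 (0.0465% higher, 0.0387% lower) and 0.0% in ShamC-60 minus ShamC-21. At an unadjusted p under 0.05, Csf1r (0.72 ± 0.309) and P2ry12 (−0.27 ± 0.103) passed in Spi-60 minus Spi-21, and Lcp1 (−0.80 ± 0.365) in ShamC-60 minus ShamC-21. The share of all probe sets passing unadjusted is not given here for any of these comparisons, so these counts are not read further.

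For C1qb the order of the group means was Spi-21 (6.08 ± 0.330), Spi-60 (6.02 ± 0.426), ShamC-60 (5.54 ± 0.205) and ShamC-21 (5.47 ± 0.129; SD, n = 8, 8, 5 and 6). The transected means differed from each other by less than their spread, and so did the sham means. For Lcp1 the order, lowest first, was Spi-21 (8.91 ± 0.569), Spi-60 (9.34 ± 0.446), ShamC-60 (9.35 ± 1.13) and ShamC-21 (10.15 ± 0.457), and each neighbouring pair differed by less than the larger of its SDs. For C1qa no neighbouring means differed beyond their spread: Spi-60 (7.74 ± 0.989), Spi-21 (7.25 ± 1.38), ShamC-60 (7.03 ± 0.751) and ShamC-21 (6.98 ± 0.400).

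The members fell into sets by how they varied between arrays of the same group. Each array's deviation from its group mean was taken, so that the effect of transection and time was removed. C1qa, Csf1r and both Laptm5 probe sets deviated together, and so did Aif1 over all 27 arrays. C1qa correlated with the mean of the other members at Pearson r = 0.95 and Spearman rho = 0.87 over the 27 arrays, Csf1r at 0.88 and 0.79, Laptm5 at 0.83 and 0.70 (1383658_at) and 0.81 and 0.74 (1368006_at), and Aif1 at 0.74 and 0.64. Without the 2 arrays farthest from the median, r was 0.92 for C1qa, 0.78 for Csf1r, 0.74 for each Laptm5 probe set and 0.51 for Aif1. C1qb (0.63, and 0.49 without the 2 arrays), Trem2 (0.44 and 0.48) and Cx3cr1 (0.39 and 0.50) followed less closely over all 27 arrays. Without the 2 arrays the value of Aif1 was near theirs. P2ry12 (0.26 and 0.19), Lcp1 (0.23 and 0.02) and Itgam (0.18 and 0.25) had the lowest values. These are descriptions of 27 arrays that share processing, and no p is attached.

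At 21 days the SD was larger in the transected than in the sham arrays for 11 of 11 probe sets, and also without Spi-21 replicate 4. The SD of C1qa was 1.38 in Spi-21 and 0.400 in ShamC-21, that of Csf1r 0.929 in Spi-21 and 0.137 in ShamC-21, and that of the dimmer Laptm5 probe set 0.754 in Spi-21 and 0.0985 in ShamC-21. At 60 days it was larger in the transected arrays for 8 of 11, and for 5 of 11 without Spi-60 replicate 8. The SD of Csf1r was then 0.721 in Spi-60 (0.478 without that array) and 0.381 in ShamC-60. That of C1qa was 0.989 in Spi-60 (0.468 without it) and 0.751 in ShamC-60, and that of Aif1 0.871 in Spi-60 (0.323 without it) and 0.756 in ShamC-60, so that for both the order turned. No test of the spread was made, and the share of all probe sets with the larger SD after transection was not counted. The wider spread is thus not shown to be particular to these genes. Spi-21 replicate 4 was the highest array of its group in 6 of the 11 probe sets and Spi-60 replicate 8 in 9 of the 11. C1qa read 9.94 in both of these arrays, against at most 8.18 in any other array of the series. Spi-21 replicate 7 was the lowest of its group in 5 of the 11.

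**Figure D3:**
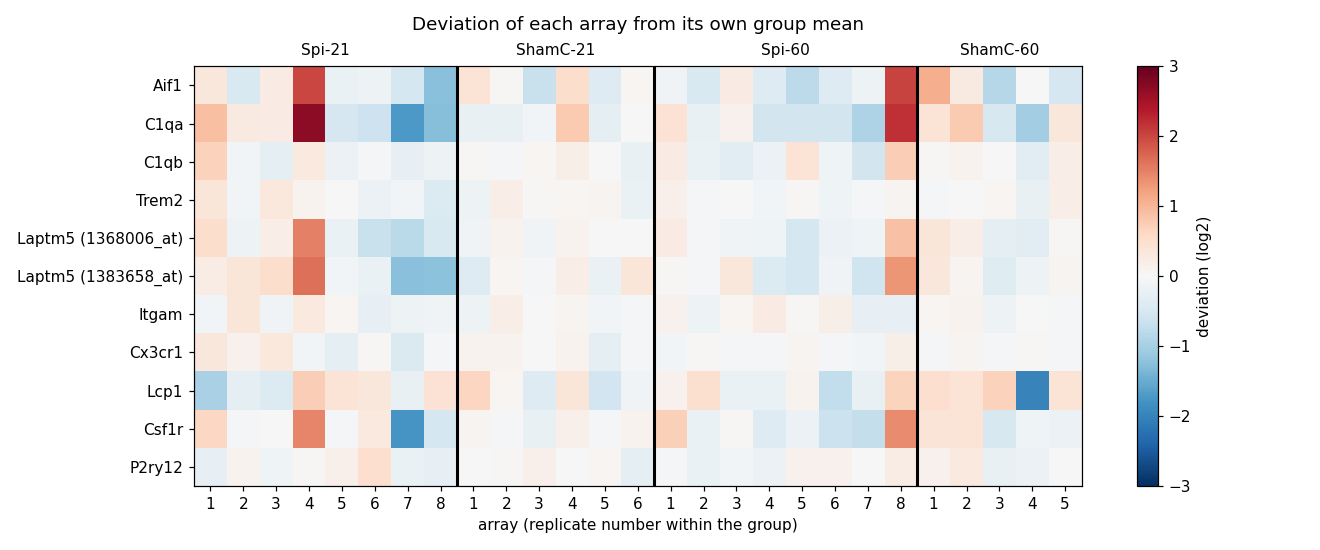
Deviation of each array (columns, by replicate number within its group) from its group mean, in log2 units by colour, for the 11 probe sets (rows). Spi-21 replicate 4 and Spi-60 replicate 8 are high in Aif1, C1qa, both Laptm5 probe sets and Csf1r together, while Itgam, Cx3cr1 and P2ry12 vary little.

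Likeness to the members in these deviations was then ranked over the other genes. Among 9759 other genes, the 10 with the highest correlation with the mean of the 11 standardised deviations were Npc2 (r = 0.94, rho = 0.90), Cd68 (0.93, 0.85), Plac8 (0.93, 0.91), Ifi30 (0.87, 0.88), C1qc (0.87, 0.86), Arhgdib (0.86, 0.82), Pycard (0.86, 0.76), Rac2 (0.86, 0.74), Fes (0.86, 0.71) and Grn (0.85, 0.81). Several are active in many cell types. Cd68 encodes a lysosomal glycoprotein of macrophages, C1qc the remaining C1q chain, Ifi30 a lysosomal thiol reductase of antigen-presenting cells, Rac2 a GTPase of blood cells, Pycard the inflammasome adaptor, Fes a tyrosine kinase, Npc2 a lysosomal cholesterol carrier and Grn progranulin. Without the 2 farthest arrays r stayed between 0.71 and 0.89. None of the 10 passed the test of transection at either time in limma; Cd68 differed by 0.05 ± 0.216 at 21 days (6.74 in Spi-21, 6.70 in ShamC-21) and C1qc by 0.00 ± 0.345 (7.22 in both groups).

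Lcp1 deviated with several lists at once. The microglia, activation and complement lists share some genes, such as Cd68 and C1qc, so their means are not separate measures. Its deviations correlated with the mean of 14 motor neuron genes at r = 0.83 (rho = 0.73), of 16 further complement genes at 0.76 (rho = 0.74), of 21 microglial activation genes at 0.56 (rho = 0.59) and of 26 further microglia and macrophage genes at 0.39 (rho = 0.38). Without ShamC-60 replicate 4, the lowest array in Lcp1 and in the motor neuron mean, r was 0.67, 0.69, 0.49 and 0.42 in the same order of lists. C1qa had 0.89 (rho = 0.81) with the further microglia and macrophage genes and 0.31 (rho = 0.28) with the motor neuron genes. The relation of Lcp1 was looked at after its values had been seen.

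**Figure D4:**
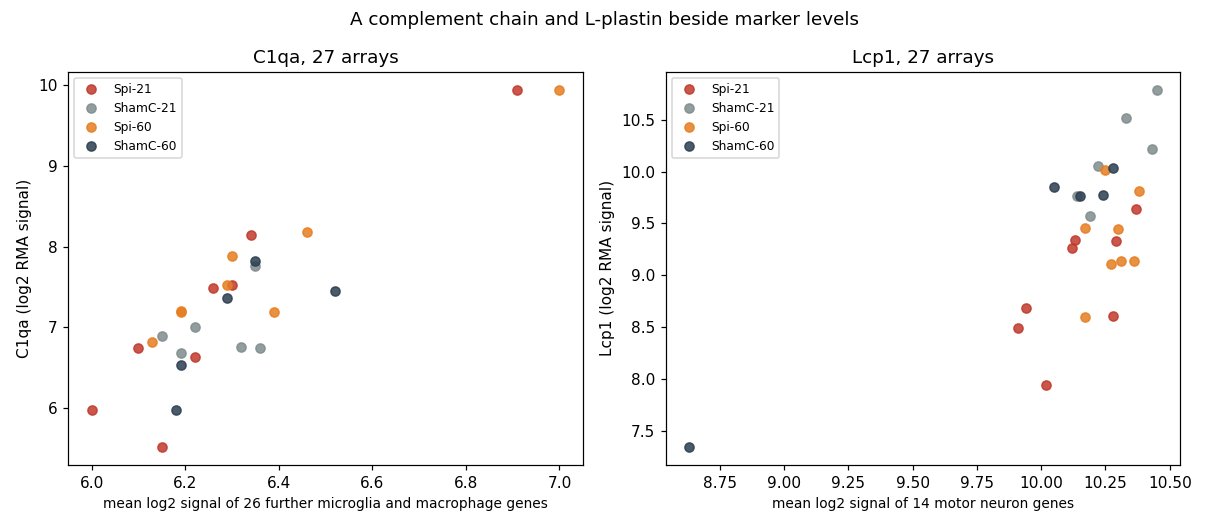
C1qa (left) and Lcp1 (right; vertical axes, log2 RMA signal) in each of the 27 arrays against the mean log2 signal of 26 further microglia and macrophage genes and of 14 motor neuron genes (horizontal axes), by group. The 2 arrays with C1qa at 9.94 have the highest means of the further genes, 6.91 and 7.00, and the array with Lcp1 at 7.34 has the lowest motor neuron mean, 8.63.

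The wider list of microglia and macrophage genes moved little with transection. Of 45 listed genes 26 were measured; at 21 days 2 rose, Mertk, a receptor for the uptake of dying cells (0.40 ± 0.092, limma adjusted p = 0.00363), and the tetraspanin gene Cd37 (0.43 ± 0.121, adjusted p = 0.0138), and 0 fell. That is 7.69%, below the 22.6% of all probe sets. At 60 days 0 of 26 passed in limma. The list's mean ranged from 6.00 to 6.91 in Spi-21 and 6.15 to 6.36 in ShamC-21, and from 6.13 to 7.00 in Spi-60 and 6.18 to 6.52 in ShamC-60. Itgb2, the partner chain of Itgam, differed by 0.37 ± 0.176 at 21 days (adjusted p = 0.124) and the pan-leukocyte gene Ptprc by 0.18 ± 0.0998 (adjusted p = 0.198). Tyrobp, the signalling partner of Trem2, and the PU.1 gene Spi1 had no single-symbol probe set here.

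Of 21 measured activation genes 4 rose at 21 days and 0 fell (19.0%, beside 22.6% called among all probe sets): the protease gene Ctsd (0.80 ± 0.183), the co-stimulatory Cd86 (0.46 ± 0.116), the cytokine Il1b (0.38 ± 0.109) and the chemokine Cxcl10 (0.23 ± 0.0813), with limma adjusted p of 0.00315, 0.00592, 0.0133 and 0.0454. Over all the single-array fits Cxcl10 differed by 0.20 to 0.26, and it lost its call without any 1 of 13 arrays (adjusted p up to 0.095). At 60 days 1 rose and 3 fell, beside 19.1% called among all: Ctsd rose (1.80 ± 0.193, adjusted p = 5.79e-07), while Igf1 (−1.07 ± 0.221), the lectin gene Lgals3 (−0.99 ± 0.260) and the lipase gene Lpl (−0.98 ± 0.290) fell (adjusted p of 0.00133, 0.00907 and 0.0187); neurons also express Ctsd, Igf1 and Lpl. Without ShamC-60 replicate 1, Lpl was at −0.46 and no longer passed (adjusted p = 0.0566).

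Among 15 measured ligands and partners of the receptors, 4 rose at 21 days (26.7%, beside 22.6% called among all probe sets), Apoe, Gas6, Icam1 and Ccl21, and 3 at 60 days (beside 19.1%), Apoe, Csf1 and Clu. Icam1 and Ccl21 each lost the call without any 1 of 6 arrays (adjusted p up to 0.0833 and 0.0976). Csf1, the ligand of Csf1r, read 7.05 to 7.57 in Spi-60 (median 7.34), against 6.79 to 7.05 in ShamC-60 (median 6.92), with every transected array above every sham array. It rose by 0.40 ± 0.0834 (limma adjusted p = 0.00136); at 21 days it differed by 0.19 ± 0.079 (adjusted p = 0.0812). Another Csf1 probe set gave 0.28 at 21 days and 0.32 at 60 days (adjusted p = 0.0451 and 0.0308), and one more gave −0.41 and −0.17 (adjusted p = 0.115 and 0.563), so the Csf1 probe sets disagree. The other Csf1r ligand, Il34 (0.16 and −0.29, adjusted p = 0.365 and 0.127), and the Cx3cr1 ligand Cx3cl1 (0.19 and −0.08, adjusted p = 0.382 and 0.759) did not pass at 21 or 60 days. Gas6, a ligand of Mertk, rose by 0.67 ± 0.213 at 21 days (adjusted p = 0.0241), a call lost without ShamC-21 replicate 1 or 4 (adjusted p up to 0.0714). Apoe, a lipid carrier that Trem2 binds, read 7.51 to 8.94 in Spi-21, against 5.71 to 6.39 in ShamC-21, and rose by 2.40 ± 0.239 (adjusted p = 2.23e-07).

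Of 16 further complement genes, 0 rose and 2 fell at 21 days (12.5%, beside 22.6% called and 11.2% lower among all probe sets), the complement inhibitor Cd55 (−1.92 ± 0.263, limma adjusted p = 1.94e-05) and the terminal component gene C5 (−0.52 ± 0.115, adjusted p = 0.0026). At 60 days Clu rose (0.95 ± 0.267), and Cr1l (−0.88 ± 0.159), another inhibitor of complement on rodent cells, and Cd55 (−1.35 ± 0.278) fell (18.8%, beside 19.1% called among all). Clu is the same gene counted above among the ligands and partners. C1qb thus rose at 21 days beside a fall of Cd55, while C1qa and C1qc did not pass.

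Markers of other cells stood beside these values as follows, with 22.6% of all probe sets called at 21 days and 19.1% at 60 days. Of 17 measured genes of T, B and NK cells and neutrophils 4 rose at 21 days (23.5%), Cd3d (0.38 ± 0.106), Cd79b (0.34 ± 0.102), Cd2 (0.34 ± 0.113) and Zap70 (0.28 ± 0.0986), rises of the size seen in Trem2 and Itgam, at group means between 5.04 and 6.64. Cd2 lost its call without any 1 of 7 arrays and Zap70 without any 1 of 10 (adjusted p up to 0.0837 and 0.0841). That list's mean ranged from 5.64 to 5.80 in Spi-21, against 5.57 to 5.65 in ShamC-21. Of 13 astrocyte genes 3 rose (23.1%), Aldoc, Slc1a2 and Gfap (1.07 ± 0.335, adjusted p = 0.0234, and up to 0.0618 without ShamC-21 replicate 1 or 2), and of 12 oligodendrocyte genes 2 (16.7%), Mbp and Mag. Mbp lost its call without any 1 of 13 arrays and Mag without any 1 of 18 (adjusted p up to 0.148 and 0.168). The astrocyte mean ranged from 8.19 to 8.92 in Spi-21 and 7.80 to 8.87 in ShamC-21, the oligodendrocyte mean from 7.18 to 7.82 in Spi-21 and 6.66 to 7.86 in ShamC-21. At 60 days 1 of the 17 T, B and NK cell and neutrophil genes rose (Cd79b), 1 of 13 astrocyte genes (Aldoc) and 1 of 12 oligodendrocyte genes (Mag), and 0 of each list fell in limma. Cd79b lost this call without ShamC-60 replicate 1 or 5 and Mag without replicate 3 or 4 (limma adjusted p up to 0.0666 and 0.0732). Of 14 motor neuron genes 2 rose at 21 days (14.3%) and 5 at 60 days (35.7%). Among the 5 were Slc18a3, the vesicular acetylcholine transporter gene (1.48 ± 0.270, limma adjusted p = 0.000434), and the neuronal hydrolase gene Uchl1 (1.01 ± 0.186, adjusted p = 0.000478). Both passed without any single array. Without ShamC-60 replicates 1 and 4 together, 2 of the 14 were higher and 1 lower at 60 days, beside 6.17% of all called. ShamC-60 replicate 4 is the array with the low motor neuron mean. Of 7 endothelial genes 0 passed in limma at 21 days, and 2 rose (Esam, Ly6c) and 1 fell (Abcb1a) at 60 days. Esam lost its call without any 1 of 4 arrays, Ly6c of 6 and Abcb1a of 7 (limma adjusted p up to 0.0954, 0.0917 and 0.193). Of 6 blood genes 2 rose at 21 days (Slc4a1, Ppbp) and 2 fell at 60 days (Ahsp and the haemoglobin gene Hbb). Slc4a1 lost its call without any 1 of 4 arrays and Ppbp of 8 (limma adjusted p up to 0.094 and 0.075), while Ahsp and Hbb kept theirs. Of 9 measured genes of perivascular macrophages and monocytes 0 passed at either time in limma, with list means of 5.33 to 5.72 in Spi-21 and 5.42 to 5.78 in ShamC-21. The within-group deviations of the members correlated with the astrocyte mean at r = 0.17 and the oligodendrocyte mean at 0.24. With the endothelial mean r was 0.30, with the motor neuron mean 0.33 and with the GAPDH control difference 0.50. Trem2 had r = 0.53 with the GAPDH difference and 0.36 with the further microglia and macrophage genes. These values were 0.53 and 0.31 for Cx3cr1 and 0.50 and 0.15 for Itgam. Every other member probe set had the reverse order, as C1qb (0.29 and 0.68) and C1qa (0.49 and 0.89). The beta-actin 3′ minus 5′ difference averaged 3.21 in Spi-21 and 2.28 in ShamC-21 (difference 0.92, two-sided exact permutation p = 0.000666, adjusted p = 0.00266 over 4 tests) and 3.27 in Spi-60 and 2.22 in ShamC-60 (1.05, exact permutation adjusted p = 0.00311). The GAPDH difference averaged 2.13 in Spi-21 and 2.97 in ShamC-21 (−0.84, exact permutation adjusted p = 0.0746), and 3.38 in Spi-60 and 2.57 in ShamC-60 (0.81, exact permutation adjusted p = 0.00414). The part of these markers and controls in the members' values was not tested.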

How the data were processed

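Signals were measured on Affymetrix rat expression arrays of amplified RNA. The deposited values are log2 signals made by the authors with RMA, per the submitters' processing notes, a method of background correction, between-array normalization and summary by probe set. A version of RMA is not given in the sources used here, and neither is the selection of the 12919 probe sets. Array medians lay between 6.31 and 6.41 and the arrays all differed. With arrays, their number sets the precision.

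Names came from the platform annotation (11880 of the tested probe sets with 1 symbol, 320 with several, 713 with none listed) and promoters from RefSeq tables. The 6 beta-actin and GAPDH controls were left out of the fit. The main test was limma 3.58.1 under R 4.3.3, with lmFit and eBayes in 1 fit of the 4 groups without covariates, two-sided, with Benjamini-Hochberg adjustment over 12913 probe sets and a threshold of 0.05; ± after a difference is the SE. The fit was tested on simulated data. The probe set with the highest mean stood for a listed gene. Exact permutation tests used scipy 1.17.1 in Python 3.11.15, and plots matplotlib 3.10.9. Named genes are the members, a fixed set (Tyrobp, Itgb2, Cd68, Ptprc, Ctss, Spi1, Cx3cl1, Csf1, Il34, Cd200, Apoe, Gfap, Mbp, Slc18a3), up to 4 called genes with the smallest p per list, direction and time, and the 10 most like the members. The members, lists and left-out sets of arrays were chosen with earlier results of these data known. Alternatives were a replicate block, array weights, median centring, quantile normalization, a filter on dim probe sets, another variance prior, 2-group fits and left-out arrays.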

Additional observations from a re-analysis of the deposited data

Results flagged for a closer look

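Of the 44 sets of values tested (11 probe sets in 4 groups), 5 held an array farther from the rest than Dixon's criterion allows, where chance gives about 1 in 20. Aif1 was 8.14 in Spi-60 replicate 8, against 6.36 in the next highest array of the group. C1qa was 9.94 in the same array, against 8.18 in the next. C1qa was 7.76 in ShamC-21 replicate 4, against 7.00 in the next. Lcp1 was 7.34 in ShamC-60 replicate 4, against 9.76 in the next lowest. P2ry12 was 5.82 in ShamC-21 replicate 6, against 6.08 in the next lowest. In Spi-60 replicate 8 the mean of 26 further microglia and macrophage genes was also the highest of the series, 7.00, and in ShamC-60 replicate 4 the mean of 14 motor neuron genes was the lowest, 8.63.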

How the results depend on the processing

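At 21 days 3 members were higher and 1 lower, when 22.6% of all probe sets were called in either direction. That share was 26.5% with array weights, 28.1% among probe sets above the median mean and 15.8% to 24.6% without single arrays. It was 30.2% without Spi-21 replicates 5 to 8, 10.3% without replicates 1 to 4 and 22.4% without Spi-21 replicate 4 and Spi-60 replicate 8. The count higher was 5 with array weights, 1 among probe sets above the median mean (which drops C1qb and Itgam), 6 without Spi-21 replicates 5 to 8 and 0 without replicates 1 to 4, and 1 to 6 without single arrays; the count lower was 1 to 2 without single arrays and 2 without Spi-21 replicate 4 and Spi-60 replicate 8 together. This last pair was left out as an alternative chosen after seeing the data, for its high member levels; Aif1 then passed at 21 days (−1.18, limma adjusted p = 0.00334) and 60 days (−0.90, adjusted p = 0.0266), which is no independent support. At 60 days the count higher was 1; it was 2 with the replicate block and in the 2-group fit, 0 with quantile normalization, among brighter probe sets, without ShamC-60 replicates 1 and 4 and without that pair, 3 without Spi-21 replicates 5 to 8, 4 without replicates 1 to 4, and 0 to 2 without single arrays. The count lower at 60 days was 0 and became 1 without that pair. Of all probe sets 19.1% were called at 60 days, 23.8% with the block, 19.4% in the 2-group fit and 18.4% with quantile normalization. The share was 32.2% among brighter probe sets, 6.17% without ShamC-60 replicates 1 and 4, and 19.3% without that pair. It was 22.6% without Spi-21 replicates 5 to 8, 23.3% without replicates 1 to 4 and 11.9% to 21.4% without single arrays. No called difference changed sign. The replicate numbers did not pair the arrays (9 of 35 same-number pairs had deviations correlated over 0.1, median −0.01); with the block the brighter Laptm5 probe set passed at 21 days (0.96, adjusted p = 0.0405) and Trem2 at 60 days (0.34, adjusted p = 0.027). The causes were not tested.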
